A study of Homo sapiens with 6 samples.

Results

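The 10 genes described here encode NF-kappaB subunits (NFKB1, NFKB2, RELA and RELB), feedback inhibitors (NFKBIA, NFKBIE and TNFAIP3) and target genes that act close to the pathway (TNFAIP2, BIRC3 and TRAF1). They were chosen by symbol, by a rule that names no measured value but was written with earlier results of these data known, and all 10 were found among the 29845 genes of the count table and among the 16555 that passed the filter on low counts. RNA was measured in A549, a long-established line grown from a human lung carcinoma and used as a model of lung epithelium, after the cells were transiently transfected with Lipofectamine. The 3 control libraries are of cells that received the empty pIRES-hrGFP-1a vector, and the 3 libraries labelled TFAM-OE are of cells that received the same vector with FLAG-tagged TFAM, the mitochondrial transcription factor A. Both groups therefore carried plasmid DNA and no untransfected cells are among the libraries, and the share of cells that took up the plasmid is not given in the sources used here. Whole cultures were sequenced, so transfected and untransfected cells were measured together.

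NF-kappaB is a family of dimeric transcription factors that are held in the cytoplasm by IkB proteins. Receptors for TNF, interleukin-1 and microbial products activate the IKK kinases, which mark IkB for destruction and release the dimers into the nucleus. There they switch on cytokines, survival genes and their own inhibitors, so that the response ends itself. NFKBIA is the rapidly resynthesised inhibitor of this loop, and TNFAIP3 (A20) edits ubiquitin chains on the signalling complexes upstream of IKK. A slower non-canonical branch processes the NFKB2 precursor, whose product pairs with RELB. In airway epithelium the pathway is known for driving the release of chemokines and IL6.

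TFAM mRNA did not separate the groups. TMM-scaled CPM values (a gene's reads relative to all reads of the library, after composition was normalised) were 76.1, 70.2 and 72.7 in control replicates 1, 2 and 3 and 71.9, 77.3 and 83.0 in the TFAM-OE replicates, a fold of 1.06 with an adjusted p of 0.623 in edgeR. The groups are therefore called by their labels throughout, since the counts of TFAM itself do not tell them apart. The study checked overexpression on the protein, with a western blot for the FLAG tag, which the counts do not measure. The insert was cloned from TFAM cDNA of complete length, and why the TFAM counts were not higher was not tested. The groups did differ in other genes, among them IFNB1, interferon beta, named here after its values were seen, which had 5.18, 4.52 and 3.60 CPM in the control and 0.376, 0.138 and 0.167 CPM in TFAM-OE (log2 fold change -4.28, adjusted p = 7.22e-05 in edgeR). The libraries held between 26650854 and 37321956 reads on genes. The 6 epithelial markers summed to between 5672 and 6321 CPM in the control and between 5299 and 6805 CPM in the libraries labelled TFAM-OE, nearly all of it from keratins, while EPCAM had a mean of 0.455 CPM in the control and 0.834 CPM in TFAM-OE. PTPRC, the marker of white blood cells, was at 0 in the control and at 0.0111 CPM in TFAM-OE, the summed haematopoietic markers lay between 5.18 and 6.40 CPM over all libraries, those of endothelium between 0.157 and 0.504 CPM, and those of fibroblasts between 2.85 and 5.13 CPM. Within the haematopoietic list CD14 was higher (log2 fold change 1.10, adjusted p = 0.0057) and CD68 was lower (-1.21, adjusted p = 0.0152) in TFAM-OE with edgeR, and their part in the results was not tested.

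The promoters of the feedback genes are shown because these genes are textbook examples of direct NF-kappaB targets and because TNFAIP3 and BIRC3 passed the test between the groups here while NFKBIA did not. RefSeq windows of 300 bases, from 250 before to 50 after a start site on GRCh38.p14, were matched for 8 of the 10 genes (14 windows), and not for RELB and NFKBIE. The windows were searched on both strands for the NF-kappaB consensus motif, and for the core of the interferon-stimulated response element, which is GAAA, then any 2 bases, then GAAA. The NF-kappaB consensus was GGG, then A or G, any base, A or T, 2 bases that are each C or T, and CC. The sequences below run 5′ to 3′ on the gene's strand, stop before the transcribed part, and have each match to the NF-kappaB consensus in capitals. NFKBIA lies on the minus strand (chr14:35404750-35404999), and TNFAIP3 (chr6:137867009-137867213) and BIRC3 (chr11:102317234-102317483) on the plus strand.
NFKBIA: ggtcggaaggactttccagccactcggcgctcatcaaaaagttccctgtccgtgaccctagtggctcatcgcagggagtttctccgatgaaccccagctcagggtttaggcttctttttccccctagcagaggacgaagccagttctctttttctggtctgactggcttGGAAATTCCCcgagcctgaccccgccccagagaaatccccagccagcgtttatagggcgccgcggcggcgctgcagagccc
TNFAIP3: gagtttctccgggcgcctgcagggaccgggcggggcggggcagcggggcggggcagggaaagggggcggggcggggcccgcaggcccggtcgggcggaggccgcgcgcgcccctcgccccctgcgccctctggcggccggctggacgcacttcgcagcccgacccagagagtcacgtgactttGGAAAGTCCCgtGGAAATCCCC
BIRC3: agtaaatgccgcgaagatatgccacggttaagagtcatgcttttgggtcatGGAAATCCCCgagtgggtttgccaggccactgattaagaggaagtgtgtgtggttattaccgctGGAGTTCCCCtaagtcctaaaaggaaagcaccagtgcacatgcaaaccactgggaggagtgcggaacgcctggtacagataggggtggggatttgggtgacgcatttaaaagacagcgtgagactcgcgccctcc

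The NFKBIA window held 1 match, at positions -81 to -72 counted in bases from the start. The TNFAIP3 window held 2 matches with 2 bases between them, at -67 to -58 and -55 to -46 from the RefSeq start, and the BIRC3 window held 2, at -199 to -190 and -135 to -126. The precursor subunit genes also held matches, and these are shown as 30-base stretches on the plus strand, from chr4:102501300-102501329 for NFKB1, from chr10:102394461-102394490 and chr10:102394490-102394519 for the NFKB2 start numbered 2, and from chr10:102395519-102395548 and chr10:102395674-102395703 for the start numbered 3. The NFKB2 stretches lie inside the annotated gene, past its first start at 102394110, and the window of that start held no match.
NFKB1: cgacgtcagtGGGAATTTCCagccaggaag
NFKB2 start 2, distal: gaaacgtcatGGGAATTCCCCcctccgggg
NFKB2 start 2, proximal: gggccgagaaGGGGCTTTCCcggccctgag
NFKB2 start 3, distal: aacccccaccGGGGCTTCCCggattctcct
NFKB2 start 3, proximal: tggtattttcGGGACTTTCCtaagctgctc

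In the capitals of the distal site at NFKB2 start 2, overlapping matches on both strands were merged. In all, 6 windows of 5 members (NFKB1, NFKB2, NFKBIA, TNFAIP3 and BIRC3) held the NF-kappaB consensus, which was present in 5.91% of 35116 RefSeq windows of the same length. The windows of RELA, TNFAIP2 and TRAF1 had no match to it. For TNFAIP2 the only window is at the start at 103123461, and the annotated gene start at 103121476 was not searched. The interferon response core was found in 1 RELA window, at -237 to -228, and in 3.57% of all windows. The start of that RELA window, at 65663857, lies upstream of the annotated gene start at 65663090. The other RELA window, from 65662867 to 65663166, covered only a short stretch before the annotated start. These are matches of letters, and binding was not measured. The map of motif matches by distance from the start shows that, with overlapping matches merged, the 2 TNFAIP3 matches are the closest pair of these windows.

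**Figure D1:**
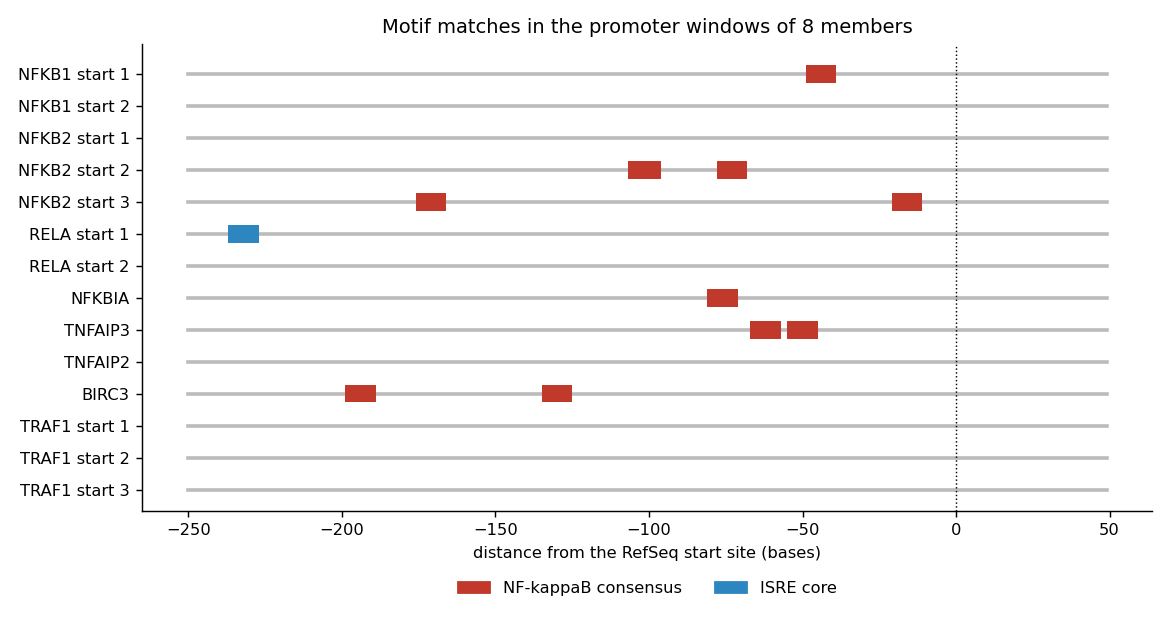
Each grey line is a promoter window of a member, from 250 bases before to 50 bases after the RefSeq start (dotted line), with matches to the NF-kappaB consensus in red and to the interferon response core in blue. The red matches lie in 6 of the 14 windows, and the windows of TNFAIP2 and TRAF1 are empty.

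Of the 10 genes, TNFAIP3 and BIRC3 were lower and TNFAIP2 was higher in the libraries labelled TFAM-OE than in the control, and the other 7 did not pass the test. TNFAIP3 mRNA was at 0.510 of its control level, BIRC3 at 0.654 and TNFAIP2 at 1.31. None of the 4 subunit genes passed the adjusted threshold in edgeR, 1 of them (RELA) had an unadjusted p under 0.05, and DESeq2 called 0. With edgeR's quasi-likelihood test, 4.81% of the whole table had an adjusted p under 0.05 and a lower level in TFAM-OE and 3.48% a higher level, so the 2 members called lower and the 1 called higher are to be read against those shares. When a change of at least 2-fold was also required, 2.07% of all genes were called lower and 0.447% higher, and 0 of the 10 members, in edgeR and in DESeq2 alike, with 0 also at an unadjusted p. The median log2 fold change of the members was -0.22, against -0.0084 over all genes tested, and 8 of the 10 values were negative. In bulk RNA of this kind, fewer cells that express a gene and less of its RNA per cell cannot be told apart.

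The plot of the members by library shows the values behind these calls. The groups did not overlap for 5 members, with NFKB1, RELA, TNFAIP3 and BIRC3 lower and TNFAIP2 higher in every TFAM-OE library, where 15.8% of all genes did not overlap in the lower direction and 15.8% in the higher. Members had between 1090 and 27734 reads in a library, so the counting error in the library with a member's fewest reads was between 0.794% and 3.03%. The spread between libraries was below or near that error for NFKB1 in TFAM-OE (1.61% against 2.66%) and for NFKBIA in the control (1.56% against 1.45%), and above it for the other members in both groups. The median coefficient of variation of the members was 5.74% in the control and 14.3% in TFAM-OE, against 10.04% and 13.53% for all genes tested. TFAM-OE replicate 3 was the lowest of its group for 7 of the 10 members, against 44.3% of all genes, and control replicate 1 was the highest of its group for 7, against 37.3%.

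**Figure D2:**
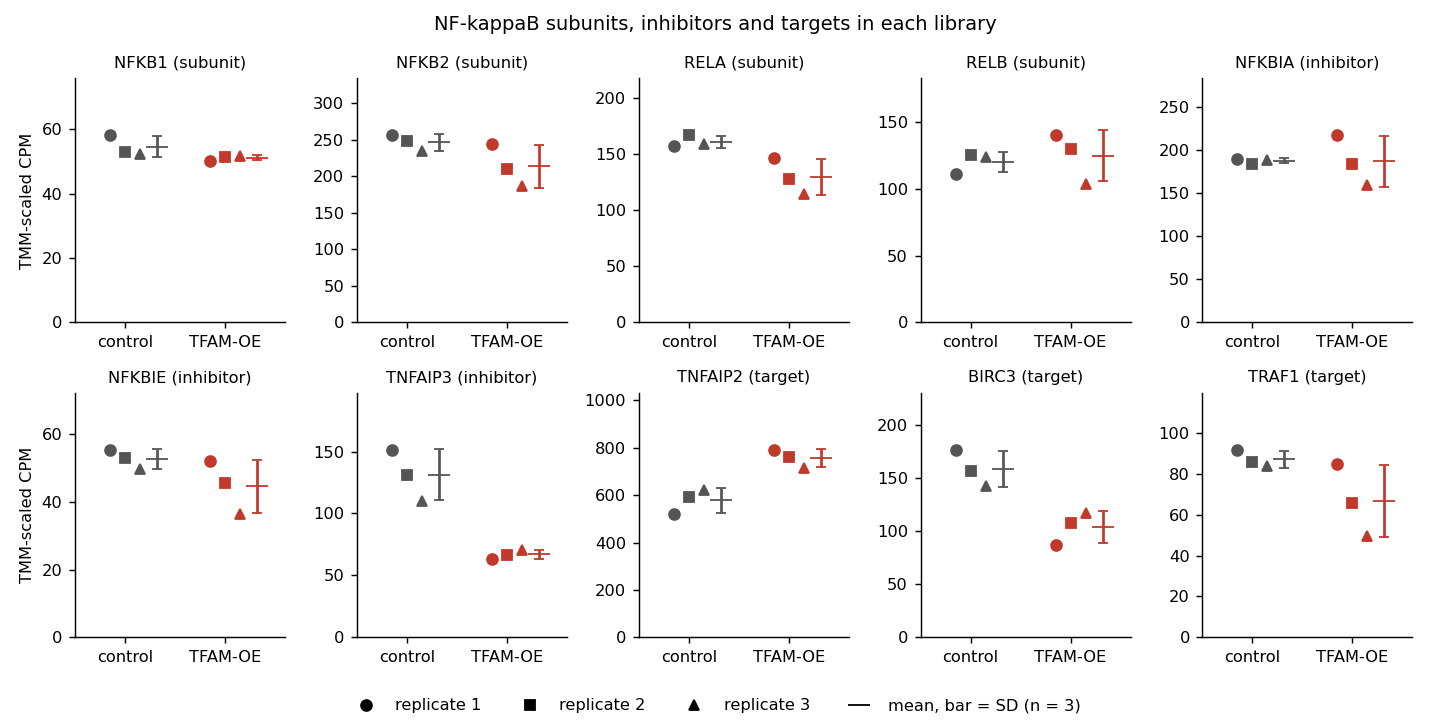
Each panel gives the TMM-scaled CPM of a member in the 3 control and the 3 TFAM-OE libraries, with a symbol per replicate, and the mean and SD (n = 3). The TFAM-OE points of TNFAIP3 lie between 63.5 and 70.5 CPM, below all control points, and those of TNFAIP2 lie between 715 and 793 CPM, above them.

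The 4 subunit genes had folds between 0.807 and 1.04, and none passed the test. NFKB1 (ENSG00000109320.11, chromosome 4, 102501330 to 102617302, plus strand, GRCh38) encodes the precursor of p50, the DNA-binding partner of RELA. It had 58.3, 52.9 and 52.5 CPM in control replicates 1, 2 and 3 and 50.2, 51.4 and 51.8 CPM in the TFAM-OE replicates. These groups did not overlap on the CPM scale, but they lay close together, and on the FPKM scale they did overlap (7.93 to 9.29 in the control, 7.29 to 8.34 in TFAM-OE). The log2 fold change was -0.09 (SE 0.09), with an adjusted p of 0.574, and the interval of the fold ran from 0.810 to 1.08. NFKB2 (ENSG00000077150.17, chromosome 10, 102394110 to 102402524, plus strand), the precursor of p52 in the non-canonical branch, had 257, 248 and 234 CPM in the control and 245, 210 and 186 CPM in TFAM-OE. Its groups overlapped through TFAM-OE replicate 1 (log2 fold change -0.21, SE 0.11, adjusted p = 0.284 in edgeR).

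RELA (ENSG00000173039.18, chromosome 11, 65653599 to 65663090, minus strand), the p65 subunit that activates transcription, had 157, 167 and 158 CPM in the control. Its TFAM-OE libraries had 147, 128 and 115 CPM, all below the lowest control library. The log2 fold change was -0.31 (SE 0.11), a fold of 0.807 (95% interval 0.684 to 0.953), with an unadjusted p of 0.0164 and an adjusted p of 0.105 in edgeR. Without TFAM-OE replicate 1 the adjusted p of RELA was 0.0294 at a log2 fold change of -0.40, and with scaling by library size alone it was 0.0493. With limma-trend on FPKM it was 0.0344 with 0.1 added and 0.0346 with 1 added. RELA was called in these 4 of the 17 alternatives. RELB (ENSG00000104856.13, chromosome 19, 45001461 to 45038192, plus strand), the partner of p52, had 111, 125 and 124 CPM in the control and 141, 130 and 104 CPM in TFAM-OE. Its highest and its lowest values were both in the TFAM-OE group, and its log2 fold change was 0.06 (SE 0.12, adjusted p = 0.818), with a negative value of -0.04 when TFAM-OE replicate 1 was left out.

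Of the 3 feedback inhibitors, TNFAIP3 passed the test. TNFAIP3 (ENSG00000118503.14, chromosome 6, 137867214 to 137883314, plus strand), whose ubiquitin-editing product shuts off signalling from the TNF receptor, had 152, 131 and 110 CPM in control replicates 1, 2 and 3. It had 63.5, 66.7 and 70.5 CPM in the TFAM-OE replicates. Every TFAM-OE library was below every control library, and the controls were spread more widely (131 ± 20.6 CPM, SD, n = 3) than the TFAM-OE libraries (66.9 ± 3.54 CPM). TNFAIP3 fell by 0.97 on the log2 scale (SE 0.12, 95% interval -1.25 to -0.70), with an adjusted p of 0.00204 in edgeR, to a fold of 0.510 (0.422 to 0.617). It was below the threshold in all 17 alternatives, with adjusted p-values of up to 0.026, and its log2 fold change was between -1.08 and -0.85 when a library was left out. It passed the 2-fold threshold only without control replicate 3 and without TFAM-OE replicate 3. Reads over 95 exonic bases, 1.47% of its exonic length in GENCODE 44, could also come from the antisense gene WAKMAR2, since the use of strand in counting is not given in the sources used here.

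NFKBIA (ENSG00000100906.10, chromosome 14, 35401079 to 35404749, minus strand), which encodes IkB alpha, had 190, 184 and 188 CPM in the control and 218, 183 and 159 CPM in TFAM-OE. The control libraries sat within the range of the TFAM-OE libraries, and the means were 187 ± 2.93 CPM and 187 ± 29.5 CPM (SD, n = 3). The log2 fold change was -0.01 (SE 0.12, adjusted p = 0.983 in edgeR) with an interval of the fold from 0.831 to 1.19, and its sign turned in 7 of the 17 alternatives, 3 of which used another scaling or DESeq2, at values up to 0.10. NFKBIE (ENSG00000146232.14, chromosome 6, 44258166 to 44265788, minus strand), IkB epsilon, a later inhibitor of the same dimers, had 55.5, 52.9 and 49.7 CPM in the control and 52.0, 45.6 and 36.3 CPM in TFAM-OE. Its groups overlapped through TFAM-OE replicate 1, and the log2 fold change of -0.24 (SE 0.13) had an adjusted p of 0.294.

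Among the target genes, BIRC3 and TNFAIP2 moved in opposite directions. BIRC3 (ENSG00000023445.13, chromosome 11, 102317484 to 102339403, plus strand) encodes cIAP2, a ubiquitin ligase of the TNF receptor complex that also restrains the non-canonical branch. It had 177, 156 and 143 CPM in the control and 86.7, 108 and 116 CPM in TFAM-OE. No TFAM-OE library reached the lowest control library, and BIRC3 fell by 0.61 on the log2 scale (SE 0.13), a fold of 0.654 (95% interval 0.536 to 0.798) with an adjusted p of 0.0206 in edgeR. The call was lost without control replicate 1 (adjusted p = 0.114), without control replicate 2 (0.0935) and without TFAM-OE replicate 2 (0.0889), while the log2 fold change stayed between -0.70 and -0.50 over the libraries left out. Antisense genes share 126 exonic bases (1.68%) with BIRC3, 103 (1.89%) with RELA and 24 (0.474%) with TNFAIP2.

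TNFAIP2 (ENSG00000185215.8, chromosome 14, 103121476 to 103137439, plus strand), a gene first found as induced by TNF and linked to the formation of membrane protrusions, had the highest level of the members per transcript length. It had 519, 592 and 623 CPM in the control and 793, 763 and 715 CPM in TFAM-OE. All TFAM-OE libraries were above all controls, and TNFAIP2 rose by 0.39 on the log2 scale (SE 0.10), a fold of 1.31 (1.12 to 1.54) at an adjusted p of 0.0477 in edgeR. That call is close to the threshold. It was kept without TFAM-OE replicate 3 and lost without control replicate 1 (adjusted p = 0.186), 2 (0.158) or 3 (0.0608) and without TFAM-OE replicate 1 (0.0609) or 2 (0.195), with log2 fold changes between 0.32 and 0.45.

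TRAF1 (ENSG00000056558.10, chromosome 9, 120902393 to 120929173, minus strand), an adaptor that recruits cIAP proteins to TNF receptors, had 91.9, 85.9 and 83.9 CPM in the control and 84.7, 65.9 and 49.4 CPM in TFAM-OE. TFAM-OE replicate 1 lay within the control range and replicate 3 far below it, which made TRAF1 the member with the widest spread (coefficient of variation 26.5% in TFAM-OE, 4.78% in the control). On the FPKM scale the groups of TRAF1 did not overlap (10.85 to 12.53 in the control, 6.8 to 10.52 in TFAM-OE). With limma-trend on FPKM with 0.1 added, its adjusted p was 0.109. In the edgeR test its log2 fold change of -0.39 (SE 0.17) had an adjusted p of 0.179. The log2 fold change was -0.38 without a filter on low counts, with an adjusted p of 0.0274 in edgeR. Without TFAM-OE replicate 1 it was -0.60 with an adjusted p of 0.00977 in edgeR.

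**Figure D3:**
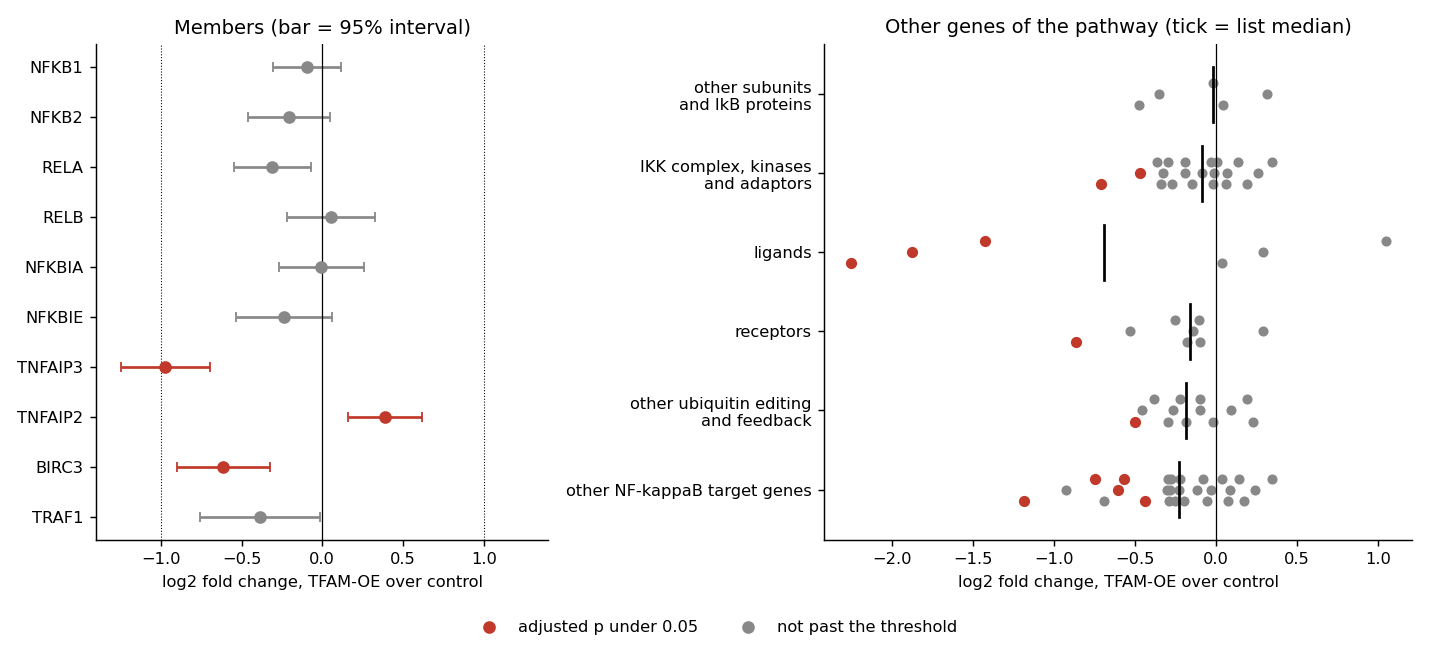
Log2 fold changes of TFAM-OE over control, for the members with 95% intervals (left) and for the other genes of the pathway by list with a tick at the list median (right), in red where the adjusted p was under 0.05. TNFAIP3 at -0.97 and BIRC3 at -0.61 are the red members below 0, and TNFAIP2 at 0.39 is the red member above it.

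Levels were compared between genes on the FPKM scale, which divides fragments by transcript length. In the control TNFAIP2 was highest at 105 FPKM, followed by NFKBIA at 84.2, NFKB2 at 52.2, RELB at 44.6 and RELA at 40.5 FPKM. TNFAIP3 (23.7 FPKM), BIRC3 (19.6) and NFKBIE (17.4) followed, and each overlapped its neighbour in the range over libraries. TRAF1 at 11.6 and NFKB1 at 8.45 FPKM were lowest. In the TFAM-OE libraries TNFAIP2 was at 136 FPKM and NFKBIA at 82.2. RELB (45.4 FPKM) then stood above NFKB2 (44.3), although their ranges overlapped, and RELA was at 32.1 FPKM. TNFAIP3 was at 11.9 FPKM, below NFKBIE (14.5) and BIRC3 (12.7), with ranges of neighbours that overlapped again.

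The makeup of the subunit transcripts, taken as each gene's share of the summed FPKM of NFKB1, NFKB2, RELA, RELB and REL, was led by NFKB2 in the control (35.5 ± 1.64%, SD, n = 3), with RELB at 30.4 ± 1.78% and RELA at 27.6 ± 0.427%. In TFAM-OE the share of RELA was 24.6 ± 0.434%, that of RELB 34.8 ± 1.47% and that of NFKB2 33.9 ± 0.798%. RELA had the lower share in every TFAM-OE library and RELB the higher, and REL made up 0.814 ± 0.124% of the sum in the control and 0.732 ± 0.346% in TFAM-OE. Shares of a sum depend on each other, and the level of RELB itself did not pass the test (log2 fold change 0.06, adjusted p = 0.818 in edgeR). The summed FPKM was 147 ± 4.88 in the control and 131 ± 9.62 in TFAM-OE.

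The ratio of RELB to RELA FPKM was 1.05, 1.11 and 1.15 in the control libraries and 1.41, 1.50 and 1.33 in those labelled TFAM-OE. The ratio of NFKBIA to RELA, an inhibitor over the subunit it holds, was 2.16, 1.96 and 2.12 in the control and 2.65, 2.55 and 2.47 in TFAM-OE. Neither ratio overlapped between the groups, with log2 differences of 0.36 and 0.30. Both ratios have RELA as the denominator, so they are not separate results. With 3 libraries against 3, each had a two-sided exact permutation p of 0.1, which is the smallest this design allows (0.15 after adjustment over the 3 ratios tested). The ratio of NFKB2 to NFKB1 was 6.03, 6.41 and 6.11 in the control and 6.67, 5.58 and 4.92 in TFAM-OE, and its groups overlapped (log2 difference -0.12, exact permutation p = 0.5, adjusted 0.5). The ratio of TNFAIP3 to NFKBIA, chosen after its values were seen and so given without a test, was 0.321, 0.286 and 0.235 in the control and 0.117, 0.146 and 0.178 in TFAM-OE.

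**Figure D4:**
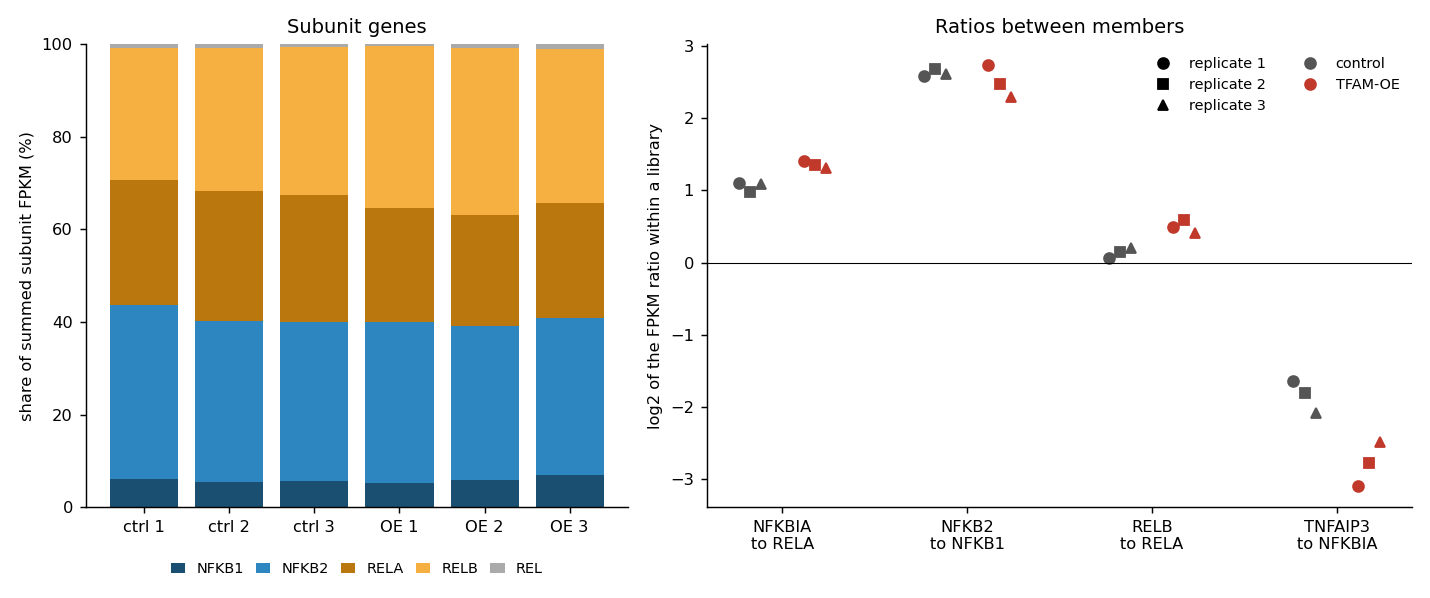
Left, the share in % of each subunit gene in the summed subunit FPKM of each library; right, the log2 ratio of FPKM between members within each library, with a symbol per replicate. The TFAM-OE points of RELB to RELA and of NFKBIA to RELA lie above all control points, those of TNFAIP3 to NFKBIA lie below them, and those of NFKB2 to NFKB1 overlap.

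The 6 lists of other genes of the pathway were read beside the members, with 80 of their 83 genes past the filter on low counts. The lists were chosen with earlier results of these data known, so their counts are a description and no test of the pathway. Of these 80, 12 were lower and 0 were higher at an adjusted p under 0.05 in edgeR, where 3 were higher at an unadjusted p under 0.05 and DESeq2 called 1 higher. Of all genes tested, 4.81% were lower and 3.48% higher by the same rule. The count of 12 depends on single libraries, with 4 without control replicate 1, 3 without control replicate 2 or TFAM-OE replicate 2, and 20 without TFAM-OE replicate 3. The groups did not overlap for 27 genes in the lower and 4 in the higher direction, where 15.8% of all genes did so in each direction. The median log2 fold change was -0.18, and 57 values were negative. Over all genes tested the median was -0.0084, and 8457 of 16555 values were negative. The 12 calls were 3 ligands, 1 receptor, 2 kinases or adaptors, 1 ubiquitin editing gene and 5 targets.

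The ligands had the lowest median, -0.70 over 6 genes. IL1A, which encodes interleukin-1 alpha, had 7.95, 6.24 and 4.58 CPM in the control and 2.32, 1.57 and 1.20 CPM in TFAM-OE (log2 fold change -1.88, SE 0.27, adjusted p = 0.00386 in edgeR). IL1B was at 4.10 ± 0.401 and 1.52 ± 0.757 CPM (-1.43, adjusted p = 0.0241), and TNFSF13B, the B-cell survival factor BAFF, at 1.28 ± 0.179 and 0.274 ± 0.149 CPM (-2.25, adjusted p = 0.00682). These 3 fell, at low levels, where 4.81% of all genes were called lower. LTB, lymphotoxin beta, was at 0.472 CPM in the control and 0.970 CPM in TFAM-OE with no overlap, and did not pass (1.05, adjusted p = 0.0704). The reads of TNF were 6, 3 and 3 in the control and 3, 5 and 6 in TFAM-OE, and those of LTA and CD40LG were between 0 and 12 in every library, so these ligands were not tested.

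Of the 8 receptors, 1 was called lower, where 4.81% of all genes were. This was TNFRSF1B, the second TNF receptor (4.84 ± 0.300 and 2.65 ± 0.523 CPM, log2 fold change -0.87, adjusted p = 0.0201 in edgeR). TNFRSF1A, the main TNF receptor of epithelial cells, was at 347 ± 24.2 and 423 ± 5.30 CPM with no overlap (0.29, adjusted p = 0.0856). IL1RAP (-0.53, adjusted p = 0.0676) and LTBR (-0.18, adjusted p = 0.247) did not pass. The list median was -0.16.

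The kinases and adaptors had 2 of 21 genes called lower, a count near what the share of 4.81% over all genes gives, and a median of -0.09. MYD88, the adaptor of interleukin-1 and Toll-like receptors, had 98.0, 119 and 127 CPM in the control and 79.4, 69.8 and 61.1 CPM in TFAM-OE, with no overlap (log2 fold change -0.71, SE 0.13, adjusted p = 0.0118 in edgeR). TBK1, a kinase related to IKK, was at 42.0 ± 4.36 and 30.2 ± 3.43 CPM (-0.47, adjusted p = 0.0468, close to the threshold). Its relative IKBKE was higher in every TFAM-OE library but did not pass (0.34, adjusted p = 0.0743), nor did BIRC2, the paralog of BIRC3 (-0.37, adjusted p = 0.107).

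None of the 5 other subunits and IkB proteins was called in edgeR, 1 was lower at an unadjusted p under 0.05, and DESeq2 called 1 lower. NFKBIZ, an inducible nuclear IkB protein, was at 30.6 ± 5.47 and 22.0 ± 2.72 CPM (log2 fold change -0.48, adjusted p = 0.0819). NFKBID (0.31, adjusted p = 0.283), REL (-0.35, adjusted p = 0.417) and BCL3 (0.04, adjusted p = 0.825) had groups that overlapped. Of 13 other ubiquitin editing and feedback genes, 1 was called lower, a count near what the share of 4.81% over all genes gives. This was N4BP1, a suppressor of the pathway (-0.50, adjusted p = 0.0472 in edgeR), and the call is close to the threshold. TAX1BP1 (-0.39, adjusted p = 0.106), OTUD7B (-0.46, adjusted p = 0.198) and ZC3H12A (-0.23, adjusted p = 0.237) did not pass.

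The 27 other target genes had a median of -0.23, and 5 were called lower, against 4.81% of all genes. IL6 had 56.7, 48.3 and 44.1 CPM in the control and 28.0, 20.9 and 16.6 CPM in TFAM-OE (log2 fold change -1.19, SE 0.18, adjusted p = 0.00515 in edgeR). CXCL8, the neutrophil chemoattractant, was at 343 ± 52.6 and 231 ± 29.7 CPM (-0.57, adjusted p = 0.0305), and IRF1, a transcription factor of the interferon response, at 98.8 ± 2.99 and 64.8 ± 12.4 CPM (-0.61, adjusted p = 0.0240). SOD2, the mitochondrial superoxide dismutase, was at 745 ± 88.7 and 548.7 ± 21.7 CPM (-0.44, adjusted p = 0.0371). GADD45B, named after its values were seen because it completes the 5, was at 44.7 ± 11.2 and 26.5 ± 6.09 CPM (-0.75, adjusted p = 0.0494, close to the threshold).

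Among all genes tested, the profiles most like that of TNFAIP3 over the 6 libraries were those of STC2, a secreted glycoprotein, ZFP36, an RNA-binding protein that promotes mRNA decay, and KITLG, the ligand of the receptor KIT. Their root mean square differences from TNFAIP3 in centred log2 CPM were 0.0496, 0.0576 and 0.0612, where the median gene differed by 0.532. STC2 had 347, 292 and 239 CPM in the control and 153, 154 and 155 CPM in TFAM-OE. The likeness uses the same libraries as the comparison between the groups, and is a description.

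The plot of the members under the alternatives shows which values moved with a tool, a scaling or a library. TNFAIP3 stayed called in all 17, BIRC3 in 13 and TNFAIP2 in 11, whereas RELA was called in 4 and TRAF1 in 2. NFKB1, NFKB2, RELB, NFKBIA and NFKBIE were called in 0 of the 17 alternatives, which used edgeR, DESeq2 and limma. None of these 5 had an unadjusted p under 0.05 in the edgeR test as reported.

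**Figure D5:**
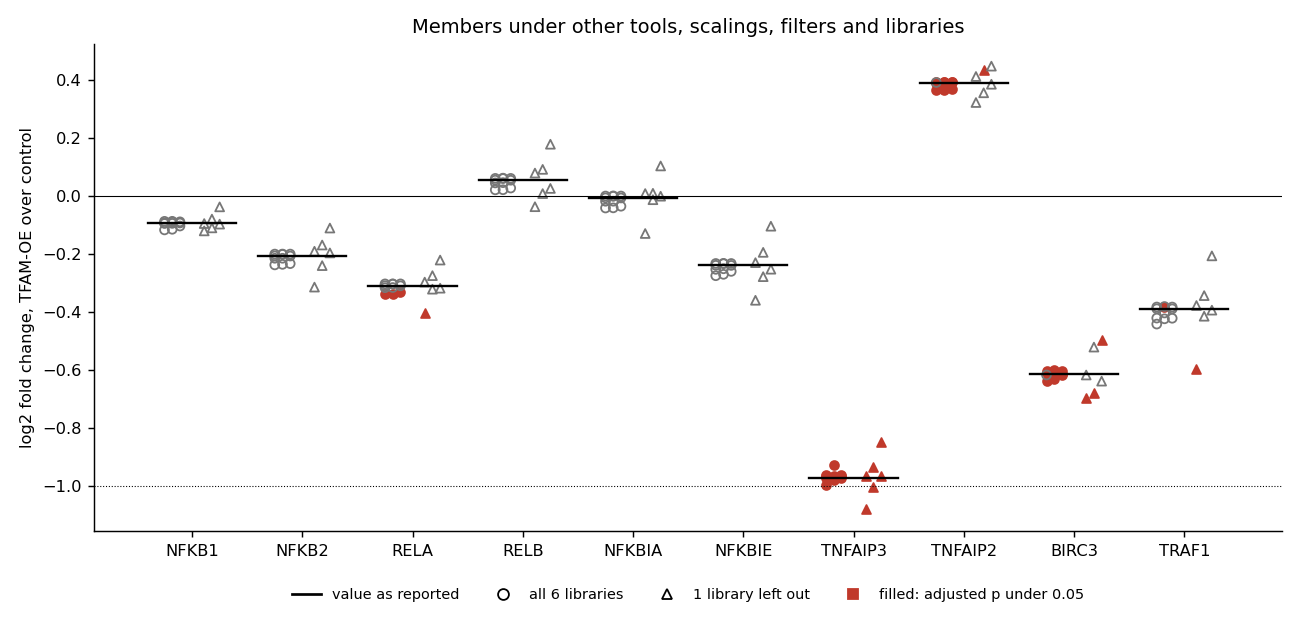
Log2 fold change of each member as reported (black bar), in the 11 alternatives with all 6 libraries (circles) and in the 6 with a library left out (triangles), filled red where the adjusted p was under 0.05. All TNFAIP3 points are red and lie between -1.08 and -0.85, and the points of NFKBIA lie on both sides of 0 between -0.13 and 0.10.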

How the data were processed

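RNA of A549 cells was sequenced in 6 libraries, 3 per group. Reads were trimmed by the authors and aligned with TopHat2 to GRCh38, and the authors deposited for every library a raw count of uniquely mapped reads per gene and, for 29656 genes, FPKM values calculated from the same reads. The kit was stranded, but whether counting used strand, and with which program and annotation, is not given in the sources used here.

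Libraries were grouped by their labels. The quasi-likelihood test of edgeR (4.0.16 in R 4.3.3) was run two-sided on TMM-scaled counts of the 16555 genes kept by filterByExpr, with Benjamini-Hochberg adjustment over all of them, and genes were called at an adjusted p under 0.05. Fold changes are TFAM-OE over control, and means are given ± SD of TMM-scaled CPM unless FPKM is named. The study states no filter; without one the fitted spread is common to all genes of like abundance (infinite prior degrees of freedom against 5.98). The test was tested on counts simulated with the spread that edgeR itself fitted to these data, so departures from its model were not tested. Intervals of 95% come from the edgeR fit, and counting errors cover counting only. The p-values measure the spread between cultures that the study calls biological replicates.

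The members and the 6 lists were chosen with earlier results of these data known. Named were all members, the 4 genes with the smallest p in each list, every called ligand, receptor and other subunit, TFAM, and the 3 profiles most like that of the member with the smallest p. Ratios of FPKM were compared with exact permutation tests over libraries. Alternatives were no filter, 10 reads in 3 libraries, edgeR's exact test, DESeq2 (1.42.0), limma-voom and limma-trend (3.58.1) on FPKM with 0.1 or 1 added, RLE, upper-quartile and library-size scaling, the replicate number as a block, and each library left out. Gene positions are from GENCODE 44 and promoter windows from RefSeq. Figures were drawn with matplotlib (3.10.9).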

Additional observations from a re-analysis of the deposited data

How the results depend on the processing

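No member was called in the opposite direction by an alternative, and the sign of the values that were not called turned as follows. RELB was -0.036 (log2) without TFAM-OE replicate 1, within a range of -0.036 to 0.18 over the libraries left out. NFKBIA was 0.00069 with DESeq2 and with RLE scaling, 0.0012 with upper-quartile scaling, and between -0.13 and 0.10 over the libraries left out. No scaling moved the median of all genes by over 0.1 on the log2 scale (-0.030 with library size alone). Leaving out a library gave between 1 and 4 members called lower (2 with all libraries), between 0 and 1 called higher (1), between 0 and 1 lower with 2-fold (0), and between 3 and 20 pathway genes lower (12). The 20 pathway genes came without TFAM-OE replicate 3, and counts of 3 or 4 without control replicate 1, control replicate 2 or TFAM-OE replicate 2. The 4 members came without TFAM-OE replicate 1. With all libraries, 3 members were called lower without a filter, where TRAF1 joined TNFAIP3 and BIRC3. The count was also 3 with library-size scaling and with limma-trend on FPKM with 0.1 or 1 added, where RELA joined them. Pathway genes called higher were 0 as reported, 1 without a filter, with DESeq2, with edgeR's exact test and with limma-trend on FPKM with 0.1 or 1 added, and between 0 and 5 over the libraries left out, with 5 without TFAM-OE replicate 3. Genes of the whole table called lower and higher were 796 and 576 as reported, 1485 and 1034 without a filter, 1105 and 932 with DESeq2, 1236 and 980 with the exact test, and between 240 and 1786 lower and 66 and 1428 higher over the libraries left out. The cause was not tested.

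The replicate numbers were not used to pair the groups, because samples with the same number did not deviate together (correlations over genes of -0.225, 0.0077 and -0.266 for numbers 1, 2 and 3), and no library correlated best with the library of its own number in the other group. With the number as a replicate block, 1 member was called lower (TNFAIP3, adjusted p = 0.026) and 0 higher in edgeR, BIRC3 had an adjusted p of 0.110 and TNFAIP2 of 0.186, 4 pathway genes were called lower and 0 higher, and 285 genes of the whole table were lower and 74 higher.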
